A study of Mus musculus with 6 samples.

Results

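The constant region genes of the antibody heavy and light chains and the gene of the J chain were followed in mouse lungs. Rows of the count table were taken by gene symbol, which gave 10 genes of the 47069 in the table. They comprise 7 heavy chain genes (Ighm, Ighd, Igha, Ighg1, Ighg2b, Ighg2c and Ighg3), the light chain genes Igkc and Iglc2, and Jchain.

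Lung RNA was sequenced from the Zpbp2 KO animals KO4, KO5 and KO6 and the WT animals WT4, WT5 and WT6, all of the C57BL/6J strain, taken at ZT10, 10 hours after lights on. KO mice (B6.129S7-Zpbp2tmZuk/Mmjax) carry a germline deletion of exons 1 to 3 of Zpbp2, in every cell, and the WT mice were C57BL/6J animals of the same colony. All mice were adults, with no treatment stated, and were kept in equal periods of light and dark, with 1 library per mouse. Age in weeks and sex are not in the labels.

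Antibodies are made by the B lineage. A naive B cell carries IgM and IgD on its surface from a single RNA precursor, and after activation it may switch to IgG, IgE or IgA by deleting the DNA between the constant region genes. Plasma cells secrete antibody, and the J chain, a small protein, joins IgM and IgA into polymers that the polymeric immunoglobulin receptor Pigr carries across epithelia into airway secretions. Each antibody has light chains of the kappa or the lambda type.

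The heavy chain genes lie in a row on chromosome 12, read on the minus strand, in the GRCm38 build with GENCODE mouse release 21. Ighm (ENSMUSG00000076617, 113418558 to 113422730) comes first and Ighd (ENSMUSG00000104213, 113406604 to 113416324) starts 6.41 kb further on. Ighg3 (ENSMUSG00000076615, 113356224 to 113361232), Ighg1 (ENSMUSG00000076614, 113325240 to 113330523), Ighg2b (ENSMUSG00000076613, 113302965 to 113307933) and Ighg2c (ENSMUSG00000076612, 113285325 to 113288932) follow. Igha (ENSMUSG00000095079, 113254830 to 113260236) is the last, 162 kb from Ighm. Igkc (ENSMUSG00000076609) is on chromosome 6, plus strand, at 70726435 to 70726966. Iglc2 (ENSMUSG00000076937) is on chromosome 16, minus strand, at 19198396 to 19200351. Jchain (ENSMUSG00000067149) is on chromosome 5, minus strand, at 88519809 to 88527891, and it is the only one annotated as an ordinary protein-coding gene, the other 9 being constant region segments.

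The link between IgM, IgA and the J chain can be read in the sequences. The coding ends found in the secreted but not in the membrane transcript are shown for Ighm (chr12:113420867-113420928) and Igha (chr12:113258768-113258829), both on the minus strand, with the last bases being the stop codon. Capitals mark the cysteine codon just before the last amino acid, the residue that bonds to the J chain.
Ighm: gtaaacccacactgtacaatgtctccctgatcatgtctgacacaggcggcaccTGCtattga
Igha: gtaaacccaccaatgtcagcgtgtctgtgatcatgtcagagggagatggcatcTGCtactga
The corresponding end of each of the 4 IgG subclass genes is 8 bases long, gtaaatga, and holds no cysteine codon. Reads were counted per gene, so the secreted and membrane forms were not separated.

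The 4 IgG subclasses differ in the hinge, the flexible stretch between the arms and the stem, whose exon is shown with its cysteine codons in capitals. Cysteines of the hinge take part in the bonds between the chains of an antibody, but which chain each one bonds to cannot be read from the codons. The exons lie on the minus strand at chr12:113329844-113329882 (Ighg1), chr12:113307261-113307326 (Ighg2b), chr12:113288263-113288325 (Ighg2c) and chr12:113360529-113360576 (Ighg3).
Ighg1: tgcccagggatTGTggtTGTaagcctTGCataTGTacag
Ighg2b: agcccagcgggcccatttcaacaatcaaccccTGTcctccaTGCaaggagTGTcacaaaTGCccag
Ighg2c: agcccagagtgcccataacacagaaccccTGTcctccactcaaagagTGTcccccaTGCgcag
Ighg3: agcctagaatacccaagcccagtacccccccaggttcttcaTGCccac
Ighg1 and Ighg2b carry 4 cysteine codons in this exon, Ighg2c carries 3 and Ighg3 carries 1. Over the whole coding sequence of the secreted form, Ighg2b and Ighg2c were 85.7% identical, with a longest identical run of 78 bases, and the other IgG pairs were 74.1% to 76.3% identical. Counts of the IgG subclasses, of Ighg2b and Ighg2c above all, are therefore uncertain to the extent that reads could fit more than 1 gene.

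The 6 libraries held 19981428 to 46796908 counted reads, the most in KO5. At these depths 3 counts, taken as the floor of detection, amount to 0.0641 to 0.150 CPM (counts per 1e6 reads of a library size scaled by TMM factors), a floor for counting error alone. The 10 genes together took 0.0586%, 0.176% and 0.281% of all reads in WT4, WT5 and WT6, and 0.496%, 0.373% and 0.796% in KO4, KO5 and KO6. Zpbp2, the targeted gene, gave 1, 2 and 2 reads in the WT and 0 in each KO library, at or below the floor throughout, so it did not check the genotype labels. Sftpc, Ager, Scgb1a1, Foxj1 and Pecam1, markers of lung epithelium and endothelium, were present in all 6 libraries. Xist measured 715 to 994 CPM in every library and no Y-linked gene on the list exceeded 9 counts. In KO5 Ddx3y, Kdm5d, Uty and Eif2s3y gave 9, 7, 6 and 2 counts. The only other read of these Y-linked genes was 1 of Uty in WT5. Among these libraries WT4 stood apart by low IgM, IgG, kappa and J chain RNA, and KO5 by high RNA of mature B cell genes, so values without each of them are given where they matter.

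**Figure D1:**
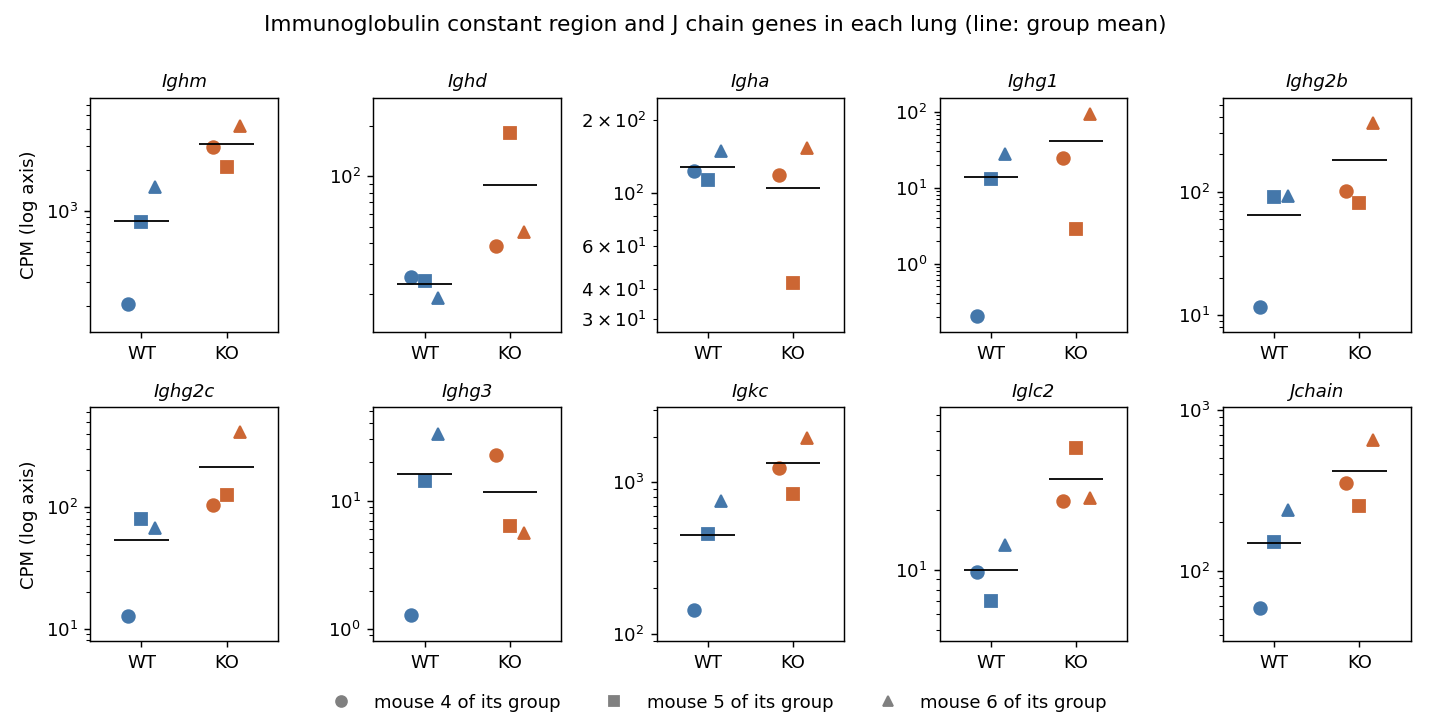
CPM (log axis) of the 10 genes in the 3 WT and the 3 KO lungs, 1 point per mouse, with the group mean as a line. KO mice lay above all WT mice for Ighm, Ighd, Ighg2c, Igkc, Iglc2 and Jchain, and the groups overlapped for Igha, Ighg1, Ighg2b and Ighg3.

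IgM, the first antibody class that a B cell makes, gave more heavy chain RNA than any other class in every lung. Ighm measured 206, 829.7 and 1490.2 CPM in WT4, WT5 and WT6, and 2936, 2089 and 4173 CPM in KO4, KO5 and KO6. All KO mice were above all WT mice, and WT4 was far below the other WT mice. The mean ± SD of 3 mice was 842 ± 642 CPM in WT and 3066 ± 1048 CPM in KO lungs. Ighm thus had a log2 fold change of 1.86 with a standard error of 0.633, which did not pass the threshold (adjusted p = 0.125, edgeR's quasi-likelihood test, Benjamini-Hochberg adjusted over all genes tested). Without WT4 the log2 fold change of Ighm was 1.40, its lowest value when single mice were left out. In whole lung RNA, fewer cells of a type and less RNA per cell cannot be told apart, and this holds for every gene described.

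IgD, which naive B cells carry beside IgM, followed another pattern. Ighd measured 25.4, 24.0 and 19.0 CPM in WT4, WT5 and WT6, and 38.3, 182 and 46.9 CPM in KO4, KO5 and KO6. The WT mice were close together, the KO mice were all above them, and KO5 stood far above the other 2 KO mice. The log2 fold change for Ighd was 1.99 with a standard error of 0.585 (adjusted p = 0.0902, edgeR). Without KO5 the log2 fold change of Ighd was 0.90 with a standard error of 0.138, and it then passed the threshold (adjusted p = 0.0196, edgeR). WT4, the lowest WT mouse for Ighm, was the highest WT mouse for Ighd.

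IgA, the class of mucosal secretions, was the heavy chain gene with the smallest difference between the groups. Igha measured 123, 113 and 148 CPM in WT4, WT5 and WT6, and 119, 42.4 and 154 CPM in KO4, KO5 and KO6. The groups overlapped, and KO5 alone was low. The log2 fold change of Igha was -0.30 with a standard error of 0.406 (adjusted p = 0.698, edgeR), and it was 0.08 without KO5. WT4 lay within the range of the other WT mice for Igha, unlike for Ighm.

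The 4 IgG subclass genes, which are reached by class switching, varied most within groups when the spread was pooled over both genotypes. Among the KO mice alone, the SD of log2 CPM was larger for Ighd (1.22) than for Ighg2b (1.15), Ighg3 (1.11) or Ighg2c (1.07). Ighg2c, the IgG2 subclass gene of C57BL/6 mice, measured 12.6, 79.2 and 67.4 CPM in WT4, WT5 and WT6, and 105, 126 and 409 CPM in KO4, KO5 and KO6. Its KO values were all above its WT values, by 2.005 on the log2 scale (standard error 0.745, adjusted p = 0.151, edgeR), and by 1.12 without KO6. Ighg2b measured 11.7, 89.7 and 92.6 CPM in WT4 to WT6 and 101, 81.3 and 357 CPM in KO4 to KO6. For Ighg2b the groups overlapped through KO5, and the log2 difference was 1.47 (standard error 0.814, adjusted p = 0.306, edgeR). It was 0.49 without KO6.

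Ighg1, the IgG subclass promoted by interleukin 4, measured 0.201, 13.03 and 27.9 CPM in WT4, WT5 and WT6, and 24.9, 2.85 and 94.3 CPM in KO4, KO5 and KO6. WT4 had 5 counts of Ighg1, barely above the floor, and KO5 was below 2 WT mice. The log2 fold change of Ighg1 was 1.53 with a standard error of 1.33 (adjusted p = 0.521, edgeR), and it was -0.04 without KO6. Ighg3, the subclass formed mainly against carbohydrates, measured 1.29, 14.3 and 33.3 CPM in WT4 to WT6 and 22.9, 6.38 and 5.63 CPM in KO4 to KO6. The WT mice spanned the whole range of the KO mice, and the KO mouse highest for the other IgG genes, KO6, was the lowest KO mouse for Ighg3. The log2 fold change for Ighg3 was -0.51 (standard error 0.965, adjusted p = 0.788, edgeR), which was 0.58 without WT6. Ighe, the IgE constant region gene, gave 0, 0 and 3 reads in WT and 5, 4 and 7 reads in KO lungs, below the filter on low counts, and was not tested.

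**Figure D2:**
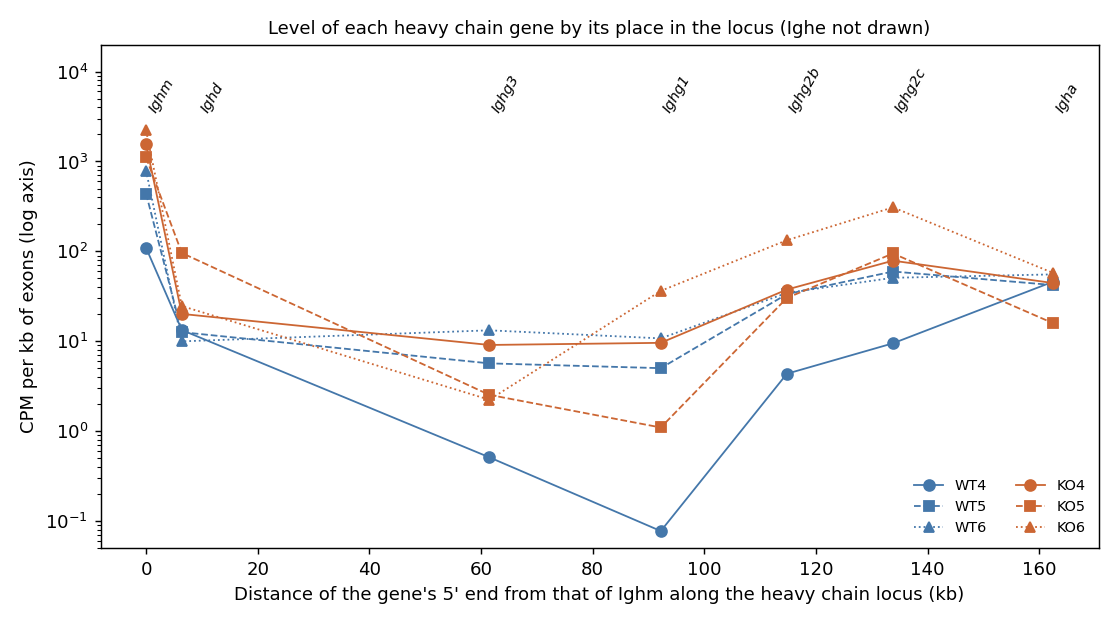
CPM per kb of annotated exons (log axis) of the 7 heavy chain genes against the distance in kb from the 5′ end of Ighm, with 1 line per mouse to guide the eye. Mice differed most at Ighg1, 92.2 kb from Ighm, and least at Igha in all but KO5.

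Kappa light chains are joined to most mouse antibodies. Igkc measured 143, 455 and 747 CPM in WT4, WT5 and WT6, and 1242, 836 and 1949 CPM in KO4, KO5 and KO6, in the same order of mice as Ighm. The groups did not overlap, with KO over WT at 1.58 on the log2 scale (standard error 0.569, adjusted p = 0.141, edgeR). Igkc overlaps the lincRNA Gm30211 on the same strand, but the 2 genes share 0 bases of exon.

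Lambda light chain RNA gave the only member past the threshold. Iglc2 measured 9.82, 7.04 and 13.3 CPM in WT4, WT5 and WT6, and 22.2, 40.9 and 22.9 CPM in KO4, KO5 and KO6. The groups did not overlap, WT4 was in the middle of the WT mice, and KO5 was highest, as for Ighd. Iglc2 rose in KO mice with a log2 fold change of 1.51 and a standard error of 0.306 (adjusted p = 0.0374, edgeR). Leaving out single mice gave log2 fold changes of 1.15 to 1.76. The call was lost without WT4 (adjusted p = 0.112), WT5 (0.142), WT6 (0.0778) or KO6 (0.0697) in the same edgeR test.

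Some reads of Iglc2 could also fit a second lambda gene, Iglc3 (ENSMUSG00000105547). The coding stretch that holds every base by which Iglc2 (chr16:19198591-19198835) and Iglc3 (chr16:19065420-19065664) differ, both on the minus strand, is shown for that reason, with the 11 differing bases in capitals.
Iglc2: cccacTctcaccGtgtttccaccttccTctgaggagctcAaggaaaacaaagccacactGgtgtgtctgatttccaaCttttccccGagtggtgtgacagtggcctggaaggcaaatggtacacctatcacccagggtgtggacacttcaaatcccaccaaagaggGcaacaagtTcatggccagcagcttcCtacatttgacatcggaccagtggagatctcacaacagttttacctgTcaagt
Iglc3: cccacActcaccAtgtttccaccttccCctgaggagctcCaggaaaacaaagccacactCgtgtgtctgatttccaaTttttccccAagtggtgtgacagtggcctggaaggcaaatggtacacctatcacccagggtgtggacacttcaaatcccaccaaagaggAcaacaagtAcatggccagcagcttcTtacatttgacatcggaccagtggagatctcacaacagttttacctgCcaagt
The longest stretch without a difference is 79 bases, and a read wholly inside it fits both genes. The split of reads between them is uncertain to the extent that reads lay wholly inside such stretches, which was not measured. Iglc3 measured 4.23, 3.21 and 5.59 CPM in WT4, WT5 and WT6, and 8.46, 22.3 and 11.4 CPM in KO4, KO5 and KO6, without overlap. It rose by 1.69 on the log2 scale (standard error 0.381, adjusted p = 0.0470, edgeR), close to that of Iglc2, and it was called in 2 of 6 fits with 1 mouse left out. Iglc1 (ENSMUSG00000105906), which is 73.4% identical to Iglc2, had a difference of 1.37 on that scale (standard error 0.374) and missed the threshold (adjusted p = 0.0744, edgeR). Iglc4 had at most 4 counts in any library.

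Jchain measured 58.3, 150.5 and 239 CPM in WT4, WT5 and WT6, and 349, 253 and 645 CPM in KO4, KO5 and KO6. The order of the 6 mice was that of Igkc and Ighm, with WT4 lowest and KO6 highest, and the groups did not overlap. The log2 fold change of Jchain was 1.48 with a standard error of 0.527 (adjusted p = 0.139, edgeR).

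**Figure D3:**
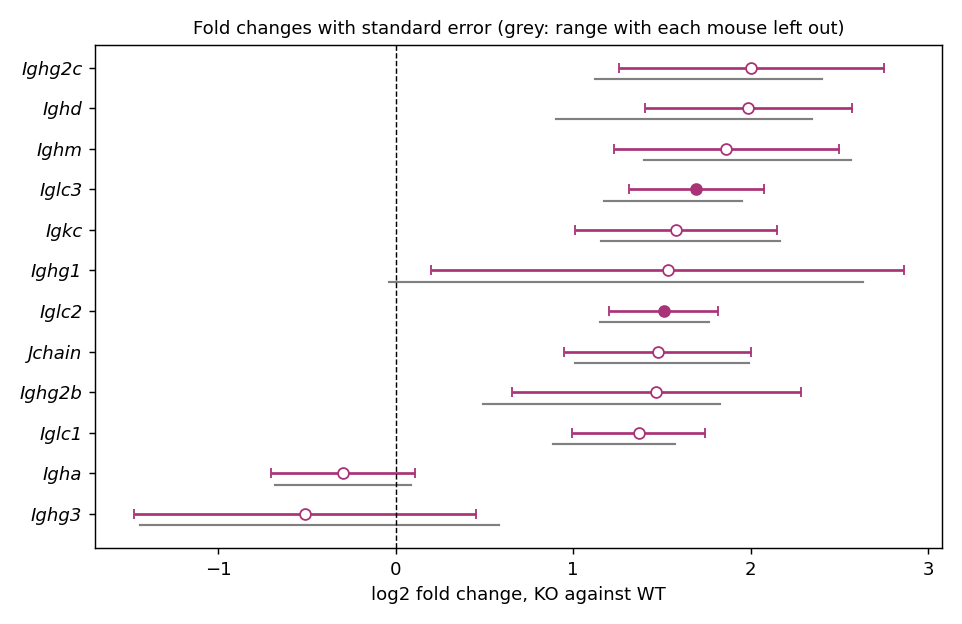
Log2 fold change of KO against WT mice for the 10 genes and for Iglc1 and Iglc3, with the standard error as a bar and, in grey, the range with each mouse left out in turn. Filled points passed an adjusted p of 0.05 (Iglc2 and Iglc3), and the grey range crosses 0 for Igha, Ighg1 and Ighg3.

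All 10 genes passed the filter on low counts, and 1 of 10 was past an adjusted p of 0.05, where 6.39% of the 17037 genes tested were. This gene was higher in KO mice, as were 3.72% of all genes tested, and none was lower, as 2.67% of all genes were. It was also past a log2 fold change of 1.5 in size, as were 0.64% of all genes tested. Beyond that, 6 of 10 had an unadjusted p of at most 0.05, all higher in KO mice, against 25.5% of all genes in either direction and 13.9% in that one. KO mice lay above all WT mice in 6 of 10 genes, against 17% of all genes tested, and groups did not overlap in either direction in 32.6%. The log2 fold change was above 0 in 8 of 10 (50.6% of all genes tested), and its median was 1.52 over the 10 genes and 0.00 over all genes tested. Differences of at least 1.5 on the log2 scale, which Ighm, Ighd, Ighg1, Ighg2c, Igkc and Iglc2 had, were found in 1.53% of all genes tested. The 10 genes are not independent of each other, since an antibody needs a heavy and a light chain from the same cell.

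The spread within a genotype was large for these genes. The pooled SD of log2 CPM within groups was between 0.48 for Iglc2 and 3.10 for Ighg1, against a median of 0.0915 over the 10893 genes with a mean of at least 10 CPM. Which group was the more variable depended on the gene. For Ighm the SD of log2 CPM was 1.46 in WT and 0.50 in KO mice. For Ighd it was 0.22 in WT and 1.22 in KO mice, and for Igha it was 0.20 in WT and 0.98 in KO mice.

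The isotypes were next compared within each mouse, as shares of the summed heavy chain level in counts per kb of annotated exons, over the 7 genes. IgM took 59.7%, 73.5% and 81.9% in WT4, WT5 and WT6, and 88.6%, 82.1% and 79.7% in KO4, KO5 and KO6. On this scale the IgM shares of the groups overlapped, and WT4 had the lowest. IgA took 25.1%, 7.05% and 5.75% in WT4 to WT6 and 2.53%, 1.18% and 2.07% in KO4 to KO6. Every KO mouse had a smaller IgA share than any WT mouse, and WT4 had by far the largest. IgD took 7.28%, 2.11% and 1.04% in WT4 to WT6 and 1.15%, 7.12% and 0.889% in KO4 to KO6, with the large shares in WT4 and KO5. The 4 IgG genes together took 7.88%, 17.4% and 11.3% in WT4 to WT6 and 7.70%, 9.55% and 17.3% in KO4 to KO6. As shares of the raw heavy chain counts of 1 mouse, these values have 95% Wilson intervals of at most 1.004 percentage points to either side, which cover counting error only and are narrow beside the range of each share over the 6 mice.

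**Figure D4:**
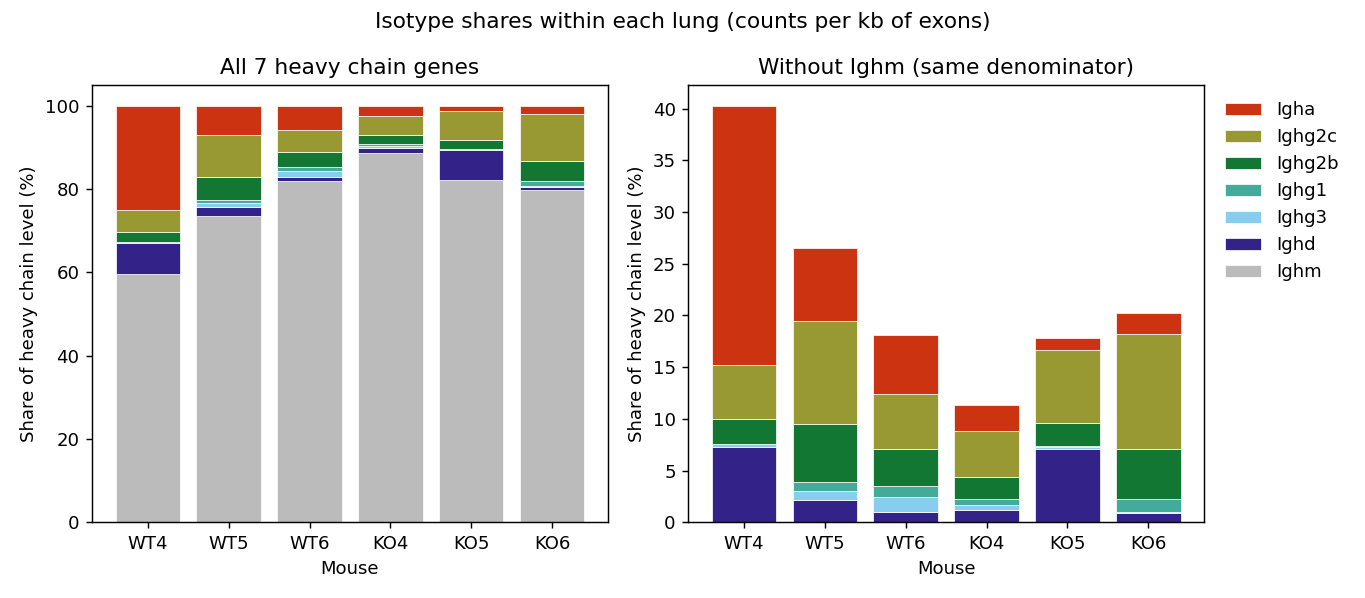
Share (%) of the summed heavy chain level, in counts per kb of annotated exons, of each of the 7 genes in each mouse, as stacked bars, with all genes on the left and without Ighm on the right at the same denominator. The Igha share ranges from 25.1% in WT4 to 1.18% in KO5, and each WT mouse is above each KO mouse.

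Differences in these shares were tested on the log2 ratio of each isotype to the other isotypes, among 10 measures in all, with two-sided exact permutation tests of 3 mice against 3, which cannot give a p below 0.1. The IgA share was lower in KO mice by a log2 difference of -2.63, with an exact permutation p of 0.1 (0.333 after adjustment over the 10 measures). Without WT4 the difference was -1.86. The ratio of IgA to IgM was 0.421, 0.0960 and 0.0702 in WT4, WT5 and WT6, and 0.0285, 0.0143 and 0.0260 in KO4, KO5 and KO6. It did not overlap either (log2 difference -2.69, exact permutation p = 0.1). Of the 2 genes in this ratio, Igha overlapped between the groups and Ighm did not. The IgM share had a log2 difference of 0.98 (exact permutation p = 0.2), which was 0.56 without WT4 and 1.36 without WT6. The IgD and IgG shares had differences of -0.38 and -0.11 (exact permutation p = 0.7 for each). After adjustment over the 10 measures no p was below 0.333. For the IgM share the overlap depended on the scale. In raw counts its groups did not overlap, with 79.3% in WT6 and 79.6% in KO6 (log2 difference 1.18, exact permutation p = 0.1). Nor did they with lengths of the secreted transcripts (log2 difference 1.25, exact permutation p = 0.1).

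Within IgG, Ighg2c was the largest subclass in every mouse by level per kb of annotated exons. It took 65.8%, 57.5% and 46.5% of the IgG level in WT4, WT5 and WT6, and 58.3%, 73.6% and 64.3% in KO4, KO5 and KO6. Ighg2b came second, with a narrow range of 30.2% to 32.2% in WT and 23.6% to 27.8% in KO mice. Ighg1 took 0.537% to 9.85% and Ighg3 took 0.466% to 12.1% over the 6 mice. The order of Ighg1 and Ighg3 differed from mouse to mouse. The rank of Ighg2c depended on the length used, and lengths of the secreted transcripts were tried after the data were seen. With these, Ighg2b exceeded Ighg2c in WT5 (9.49% against 8.40% of the heavy chain level) and WT6 (6.19% against 4.52%). Raw counts gave the same order in WT5 and WT6. In WT4 and all KO mice Ighg2c stayed the larger on each of these scales.

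Light chains and the J chain were set against the heavy chains in the same way. The ratio of Igkc to Iglc2, kappa to lambda, was 16.7, 74.2 and 64.5 in WT4, WT5 and WT6, and 64.4, 23.5 and 97.9 in KO4, KO5 and KO6, per kb. It was low in WT4 and KO5, the mice with the largest IgD shares, and the groups overlapped (log2 difference 0.30, exact permutation p = 0.7). Jchain to the sum of Ighm and Igha, per kb, was 0.149, 0.124 and 0.112 in WT4 to WT6 and 0.0865, 0.0895 and 0.113 in KO4 to KO6. This ratio stayed within a narrow range while Jchain itself varied over more than 1 order of magnitude, and the log2 difference was -0.41 (exact permutation p = 0.2). The ratio of light to heavy chains per kb was 1.55, 1.45 and 1.48 in WT4 to WT6 and 1.35, 1.22 and 1.33 in KO4 to KO6. It did not overlap between groups (log2 difference -0.20, exact permutation p = 0.1), but the difference was -0.06 with lengths of the secreted transcripts, a choice made after the data were seen.

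The antibody genes were then set beside genes that mark the cells of the B lineage. Of 17 B cell genes, all 17 had KO values above all WT values (17% of all genes tested), with a median log2 fold change of 1.88. Of these, 1 passed the threshold of edgeR's test, Cd72 (1.67, adjusted p = 0.0401), whereas 14 passed with DESeq2. Among all 17037 genes tested, 6.39% passed in edgeR and 1913 genes with DESeq2. In edgeR the number of B cell genes called was 13 without KO5, 14 without KO4 and 0 without any 1 of WT4, WT5, WT6 and KO6. The summed level of the 17 genes was 210 to 233 CPM in WT mice and 383, 1495 and 460 CPM in KO4, KO5 and KO6. Ms4a1, which encodes CD20, measured 18.4, 18.8 and 24.3 CPM in WT4 to WT6 and 41.4, 173 and 41.1 CPM in KO4 to KO6 (adjusted p = 0.0789, edgeR). KO5 was far above the other mice for Ms4a1, and WT4 was close to WT5.

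Ighd kept step with the B cell genes. The CPM ratio of Ighd to Cd79a, which encodes a signalling chain of the B cell receptor, was 1.32, 1.40 and 0.884 in WT4, WT5 and WT6, and 1.05, 1.31 and 1.16 in KO4, KO5 and KO6. The 6 mice lay close together, although Cd79a itself measured 17.2 to 139.5 CPM. Ighm did not keep this ratio, with 10.7, 48.2 and 69.4 in WT4 to WT6 and 80.3, 14.97 and 103 in KO4 to KO6. The lowest values were those of WT4 and KO5, and the groups overlapped.

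Genes of plasma cells gave a mixed picture. The median log2 fold change over 13 such genes was 0.94. Of them, 4 rose in KO mice (3.72% of all genes tested) and none fell (2.67% of all). DESeq2 called 6 of them, and 1913 of all 17037 genes. In edgeR the number of plasma cell genes called was 3 without KO5 and 0 without any 1 of WT4, WT5, WT6 and KO6. The 4 genes were Irf4 (1.54, adjusted p = 0.0176), Tnfrsf13b (1.71, 0.0354), Pou2af1 (1.82, 0.0452) and Slamf7 (0.94, 0.0255), by edgeR, and all 4 are also expressed by other leukocytes or B cells. Mzb1, a chaperone of the endoplasmic reticulum in antibody-forming B cells and plasma cells, measured 4.75, 8.15 and 17.5 CPM in WT4, WT5 and WT6, and 18.5, 30.9 and 32.9 CPM in KO4, KO5 and KO6. Its groups did not overlap, but it missed the threshold (adjusted p = 0.105, edgeR). Xbp1, Prdm1 and Sdc1, regulators and a surface marker of plasma cells that lung epithelium or other leukocytes also express, had log2 fold changes of -0.14, 0.19 and -0.14 and did not pass the threshold. The CPM ratio of Igha to Mzb1 was 25.9, 13.8 and 8.45 in WT4, WT5 and WT6, and 6.40, 1.37 and 4.66 in KO4, KO5 and KO6, without overlap.

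**Figure D5:**
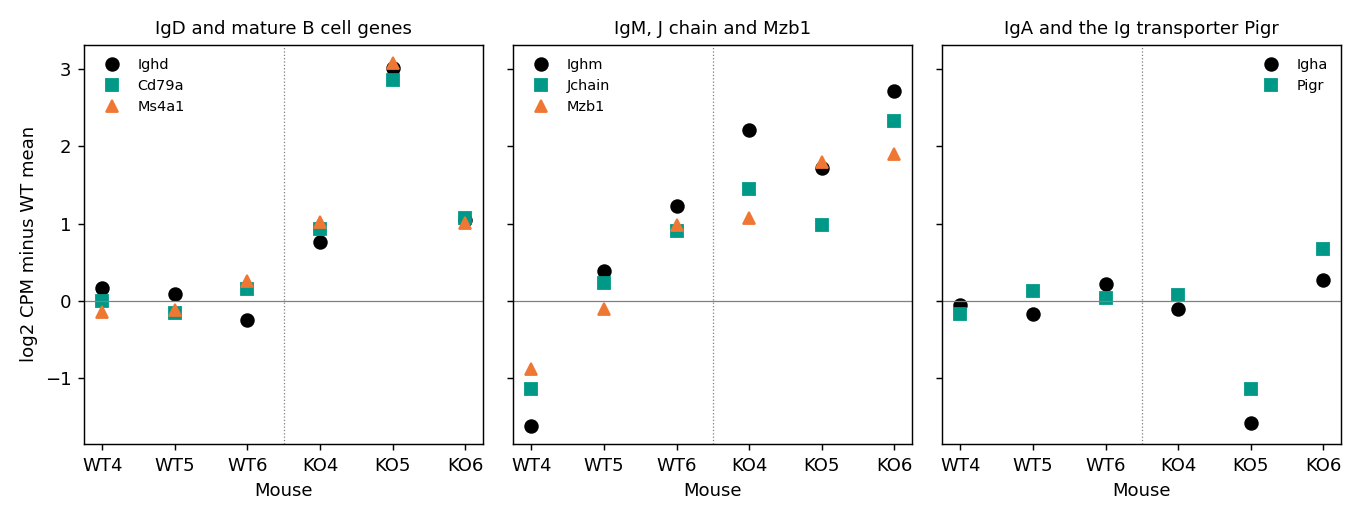
Log2 CPM minus the WT mean in each mouse, for Ighd with Cd79a and Ms4a1 (left), Ighm with Jchain and Mzb1 (middle) and Igha with Pigr (right). KO5 is highest by far on the left, WT4 is lowest in the middle, and KO5 is lowest on the right.

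The genes with the pattern most like that of a member were found over the 6 mice among 15247 genes, by the root mean square difference of log2 CPM after centring each gene, with the antibody genes left out. Nearest to Igha was Pigr, the receptor that transports IgA and polymeric IgM across epithelium (difference 0.243). Pigr measured 86.8, 107 and 100.1 CPM in WT4 to WT6 and 103, 44.3 and 155 CPM in KO4 to KO6, with KO5 low as for Igha. It was followed by Chad, Bmpr1b, Cav3 and Slco1a5. Nearest to Ighm were H2-M2 (0.413), Cxcl9, Ubd, Ccl8 and Mzb1. Nearest to Jchain were Derl3 (0.370), Ccl4, Mzb1, Gm36948 and H2-M2. Among the members themselves, Igkc and Jchain were the most alike (0.166), Ighm was nearest to Igkc (0.260) and Ighg2b to Ighg2c (0.334). Igha, Ighg3 and Ighg1 were far from every other member, with differences of 1.202, 1.32 and 1.46 from the nearest, which were Jchain, Igkc and Ighg2b. These likenesses are descriptions over 6 libraries that share the 2 genotypes.

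Genes of class switching, of the signals that direct it and of antibody transport had smaller median differences than the B cell genes. Over all genes tested, 6.39% passed in edgeR, 1913 of 17037 passed in DESeq2 and 25.5% had an unadjusted p of at most 0.05. Of 13 genes of the germinal centre and of switching, 11 were tested and none passed the threshold of edgeR's test, 0 with DESeq2 and 1 at an unadjusted p of at most 0.05, at a median log2 fold change of 0.11. Of 10 cytokines that direct switching, 5 were tested and none passed in edgeR, 1 in DESeq2 (Tgfb1) and 3 at an unadjusted p of at most 0.05, at a median of 0.23. All 5 had a log2 fold change above 0 (50.6% of all genes tested). The largest was that of Il21 (1.91, adjusted p = 0.0763, edgeR). Il21 gave only 2, 2 and 11 counts in WT4 to WT6 and 10, 41 and 16 counts in KO4 to KO6. Of 7 genes that bind or transport antibodies, none passed in edgeR, 2 in DESeq2 (Fcmr and Fcgr2b) and 4 at an unadjusted p of at most 0.05, at a median of 0.18. Pigr among them had a log2 fold change of 0.04 (adjusted p = 0.970, edgeR). Of 13 genes of B cell homing, 11 were tested, with a median of 0.72, and 1 passed, Itga4, an integrin chain of many leukocytes (log2 fold change 1.39, adjusted p = 0.0132, edgeR), whereas 4 passed with DESeq2 and 6 had an unadjusted p of at most 0.05. In edgeR the homing count was 0 without WT5 or WT6, 6 without KO4 and 3 without KO5. Of 7 early B cell genes, which the bone marrow uses, only Vpreb3 was tested, with a log2 fold change of -0.18, and Rag2 and Vpreb2 had 0 counts in every library.

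The variable genes, which form the other end of the antibody chains, are given as sums. The summed level of the 185 Ighv genes was 69.7, 194 and 254 CPM in WT4, WT5 and WT6, and 394, 403 and 828 CPM in KO4, KO5 and KO6. That of the 162 Igkv genes was 112, 352 and 529.8 CPM in WT4 to WT6 and 904, 638 and 1444 CPM in KO4 to KO6. Both sums had WT4 lowest and KO6 highest, as for Ighm and Igkc, and neither overlapped between groups. The sum of the 3 Iglv genes was 11.997, 12.8 and 16.8 CPM in WT4 to WT6 and 19.8, 41.6 and 24.8 CPM in KO4 to KO6, highest in KO5 as for Iglc2.

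Markers of other cells differed between the same libraries. Of all genes tested, 6.39% were called in edgeR (3.72% higher and 2.67% lower in KO mice). DESeq2 called 1913 of 17037, and 25.5% had an unadjusted p of at most 0.05. Of 12 T cell genes none passed the threshold of edgeR's test, 8 passed with DESeq2 and 10 had an unadjusted p of at most 0.05. Their median log2 fold change was 0.85 and their sum was 83.5 to 92.9 CPM in WT and 98.6 to 219 CPM in KO mice, highest in KO5. Of 12 monocyte genes 7 rose, led by Treml4, Cx3cr1 and Spn (log2 fold changes 1.76, 1.52 and 1.27), with a median of 0.78. The 12 genes summed to 2089 to 2276 CPM in WT and 2262.5 to 2522 CPM in KO mice. Most of these sums came from Ace (1354 to 1640 CPM over the 6 mice) and Chil3 (295 to 509 CPM). Ace and Chil3 had log2 fold changes of 0.01 and 0.21, so the sums say little about the other monocyte genes. Of 6 red cell genes 5 fell, led by Hbb-bs, Alas2 and Hbb-bt, with a median of -0.87 and sums of 2130.2 to 2280.2 CPM in WT and 1037 to 1413 CPM in KO mice. Of 9 lung tissue genes, with a median of -0.23, 1 fell, Cldn5 (log2 fold change -0.31, adjusted p = 0.0362, edgeR). Without WT5 or without WT6 no gene of these 4 lists passed, and without KO6 the only ones were 3 monocyte genes. No gene of these 4 lists was at 0 in all libraries. The part of these cells in the values of the antibody genes was not tested.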

How the data were processed

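RNA of 6 lungs, 1 library per mouse (TruSeq stranded mRNA), was compared between 3 KO and 3 WT mice. The values that the authors deposited are raw counts of reads per Ensembl gene, without normalization, in 1 column per mouse. The submitters' processing notes name Trimmomatic 0.36, STAR 2.5.3a, Picard 2.9.0 and HTSeq 0.6.0 with GRCm38, and the paper's methods name the GenPipes pipeline. The strand setting and the annotation release used for counting are not given in the sources used here. Reads that fit several genes, overlapping genes and near-identical constant regions are therefore uncertain. Positions, lengths and transcript sequences come from the GENCODE annotation of GRCm38, mouse release 21, in which 46488 of the 47069 genes were found. Amino acid sequences were not used here, and some genes of the lists are counted but not reported by name.

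Counts were tested in R 4.3.3 with edgeR 4.0.16 (glmQLFit and glmQLFTest) and TMM factors, after filterByExpr at its defaults. This filter asks for 15 counts in total and for a CPM equal to 10 counts at the median library size. That CPM must be reached in at least 3 libraries, the size of a group, and not in every library. The filter kept 17037 genes, over which p-values were adjusted by Benjamini-Hochberg, with a threshold of 0.05. All 6 libraries entered without covariates. Standard errors were taken from the test's F statistic. CPM use TMM-scaled library sizes, and log2 CPM a prior count of 2. Levels between genes were compared in counts per kb of the union of annotated exons. Total counts were 19981428 to 46796908 per mouse. Shares within a mouse were tested as log2 ratios by two-sided exact permutation tests. Litter and kinship of the mice are not stated in the labels or methods.

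The text names the 10 genes, the other constant region genes, Zpbp2, fixed B lineage genes, up to 3 called genes in each direction of each other list, and the 5 genes most alike to Ighm, Igha and Jchain with a mean CPM of at least 1. Genes and lists were chosen with earlier results of these data known. The 4 called plasma cell genes exceed that limit of 3 because Irf4 is always named. Vpreb3, Tgfb1, Il21, Fcmr, Fcgr2b, Gm30211 and the genes most alike to Ighd and Iglc2 were chosen after their values were seen. Ace, Chil3 and the Y-linked genes were also named after their values were seen. Alternatives were DESeq2 1.42.0 and its size factors, upper-quartile factors, library sizes without antibody genes, no filter, 10 counts in every library, the replicate block, each mouse left out, and other lengths and a summed lambda level for the shares. In 3 sets of simulated counts for 16858 genes, edgeR recovered 97.5% of genes given a log2 difference of 2, with 4.08% false calls. Each simulated gene had the spread typical of genes at its level. The 10 genes spread more, with pooled SDs of log2 CPM of 0.48 to 3.10. The median was 0.0915 over genes with a mean of at least 10 CPM. The 97.5% therefore does not describe the 10 genes. Tables, alignments and figures used Python 3.11.15 with Biopython 1.88, SciPy 1.17.1, Matplotlib 3.10.9, pandas 2.3.3 and NumPy 2.4.6.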

Additional observations from a re-analysis of the deposited data

How the results depend on the processing

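Of the 10 genes 1 passed the threshold (Iglc2). It was 2 with no filter on low counts and with DESeq2, where Ighd was added (adjusted p = 0.0376 and 0.0488). With the replicate number as a block it was 0 (Iglc2 adjusted p = 0.109, edgeR), and the genes called among all tested went from 1089 to 66. The numbers did not pair the mice, since the deviations of same-numbered mice had correlations of -0.03, -0.15 and -0.02. With each mouse left out it was 0 to 2, being 0 without WT4, WT5, WT6 or KO6, and 2 (Iglc2 and Ighd) without KO4 or KO5. Over all genes, 1 was called without WT5, 63 without WT6, 117 without KO6, 254 without WT4 and 1913 by DESeq2. Other size factors and library sizes without antibody genes gave 1 of 10, and at least 10 counts in every library gave 1 of 9, as Ighg1 was dropped.

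Leaving out 1 mouse turned the sign of 3 log2 fold changes, which ranged from -1.44 to 0.58 for Ighg3 (0.58 without WT6), from -0.68 to 0.084 for Igha (0.084 without KO5) and from -0.040 to 2.64 for Ighg1 (-0.040 without KO6). With each mouse left out, the log2 difference ranged from -1.35 to 0.41 for the IgD share, from -0.49 to 0.23 for the IgG share, from -1.56 to 0.28 for IgD to IgM and from -0.39 to 0.88 for kappa to lambda. The causes were not tested. For the IgA share it was -3.09 to -1.86 and for IgA to IgM -3.19 to -1.90, and no other length or lambda sum turned the sign of any share. With 3 mice a group, the shares cannot reach a p below 0.1, and Ighe and Iglc4 were too low to test at this depth.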

Other observations

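Outside the 10 genes, the lincRNA Gm30211, whose gene spans Igkc without sharing exon bases with it, gave 20, 27 and 44 reads in the WT lungs 4 to 6. In the KO lungs 4 to 6 it gave 55, 376 and 100 reads. In raw counts both genes were highest in KO5, the deepest library, with 39872 reads of Igkc in KO5 and 39471 in KO6. The CPM of Igkc were highest in KO6.

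Genes most like Ighd and Iglc2 were listed by the same measure after it was seen that KO5 was highest in both. Nearest to Ighd were Ryr1 (difference 0.102), Fcrl1, Pax5 and Siglecg, and the last 3 of these are known from B cells. Nearest to Iglc2 were Zcchc18 (0.120), Gm13012, Cd72, AC133103.1 and 5430427O19Rik. Among the other antibody genes, Ighd and Iglc2 were each the nearest to the other, at a difference of 0.563.

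The levels per kb within 1 mouse show how far apart the libraries lay. In WT4, Ighm measured 109.5 CPM per kb of exons and Igha 46.1, whereas in KO5 Ighm measured 1108 and Igha 15.9 CPM per kb.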
